A study of Mus musculus with 35 samples.

Results

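The change described here is that of the expression ratio of NOD over NOD.B10 mice between 12 and 16 weeks of age in the pancreatic lymph node. It was measured on the 13 arrays labelled with these ages, 7 at 12 weeks and 6 at 16 weeks, out of 35 arrays in the series. The arrays were chosen by their labels alone, and no measured value entered the choice. On each of them the Cy3 dye marked node RNA of female NOD/LtJ mice (NOD, labelled diabetic), and the Cy5 dye marked RNA of female NOD.B10Sn-H2b/J mice (NOD.B10, labelled control). No treatment is given for either strain. The control mice were 10 at 10 days and 10 at 20 weeks of age, so that none had the age of the NOD mice compared. Whether their RNA was pooled, and which of it an array carried, is not given in the labels. The dyes were never exchanged. Nothing in the labels says whether the NOD RNA of an array came from 1 mouse or from several, and the p-values below therefore rest on variation among arrays that may be technical.

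NOD mice develop autoimmune diabetes spontaneously, as T cells infiltrate the islets and destroy the insulin-producing beta cells. The pancreatic lymph node drains the pancreas and is where antigen-presenting cells show islet proteins to T cells before and during that attack. NOD.B10 mice carry the NOD background with the H2b haplotype of the major histocompatibility complex (MHC) and stay free of diabetes. The ratio of an MHC gene thus compares unlike alleles, whereas its difference between ages compares the same alleles throughout.

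Values are log2 ratios of the processed signals, NOD over control, so 0 stands for equal signals and 1 for a 2-fold higher NOD signal. A gene was called where the difference of the mean ratios, 16 weeks minus 12 weeks, had an adjusted p under 0.05 (limma over all 35 arrays, Benjamini-Hochberg over 28366 genes). On the 13 arrays, 42.1% to 82.9% of probes were well above background for NOD and 36.3% to 79.3% for the control. Lymphocyte genes were measurable in the node, as 24 of 28 T cell genes and 18 of 23 B cell genes were well above background in the NOD channel on all 13 arrays. The arrays of 12 weeks were not alike. Replicates 1 to 4 and 7 correlated with each other at r = 0.43 to 0.70 across probes, which are not independent, whereas replicates 5 and 6 correlated with those at 0.20 to 0.34, with each other at 0.49 and with the arrays of 16 weeks at 0.26 to 0.49. For this reason, counts and the values of some genes are also given without replicates 5 and 6 at 12 weeks, including each gene named below that was called only with or only without them. At 16 weeks the correlations ran from 0.24 to 0.69.

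The ratio of 4676 genes was called, 16.5% of those tested, with 2654 higher (9.36%) and 2022 lower (7.13%) at 16 weeks. A difference of at least 1 was seen in 1136 of them (4%), 705 higher (2.49%) and 431 lower (1.52%). Groups that did not overlap at all were found for 1447 of the called genes (5.1% of those tested, or 5.29% counting genes not called), 817 higher (2.88%) and 630 lower (2.22%). The shares of 9.36% higher and 7.13% lower are the background for the counts of list members below. Among the 9052 genes measured in both channels on all 13 arrays, which are the brighter ones, 38.2% were called, 21.3% higher and 16.9% lower. The median difference over all genes was 0.02. Of the 2654 genes called higher, 1950 stood below the control at 12 weeks and 387 at 16 weeks, and 1563 crossed from below to above it. Of the 2022 called lower, 1253 crossed from above to below. Without replicates 5 and 6 at 12 weeks 6175 genes were called, among them 4366 of the 4676, and all 4676 kept their direction. The arrays left in had also served to call the 4676, so their direction was largely set beforehand.

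A ratio can move through either channel, so the difference was split into the part of the NOD signal and the part of the control signal. The NOD channel on its own was called for 2801 genes (9.87%), 1392 higher (4.91%) and 1409 lower (4.97%). The control channel was called for 328 genes (1.16%), 193 higher (0.68%) and 135 lower (0.476%). Of the 4676 genes called in the ratio, 2312 were also called in the NOD channel alone, 90 in the control channel alone, 6 in both and 2268 in neither. The NOD signal moved further than the control signal in 87.5% of the 4676. The control carried a median share of 0.07 of the difference (quartiles -0.13 and 0.30), where a negative share means that the control moved with the NOD signal. Centring each channel on its own median left 968 genes called in the NOD channel and 32 in the control channel. Without replicates 5 and 6 at 12 weeks 4616 genes were called in the NOD channel and 179 in the control channel.

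**Figure D1:**
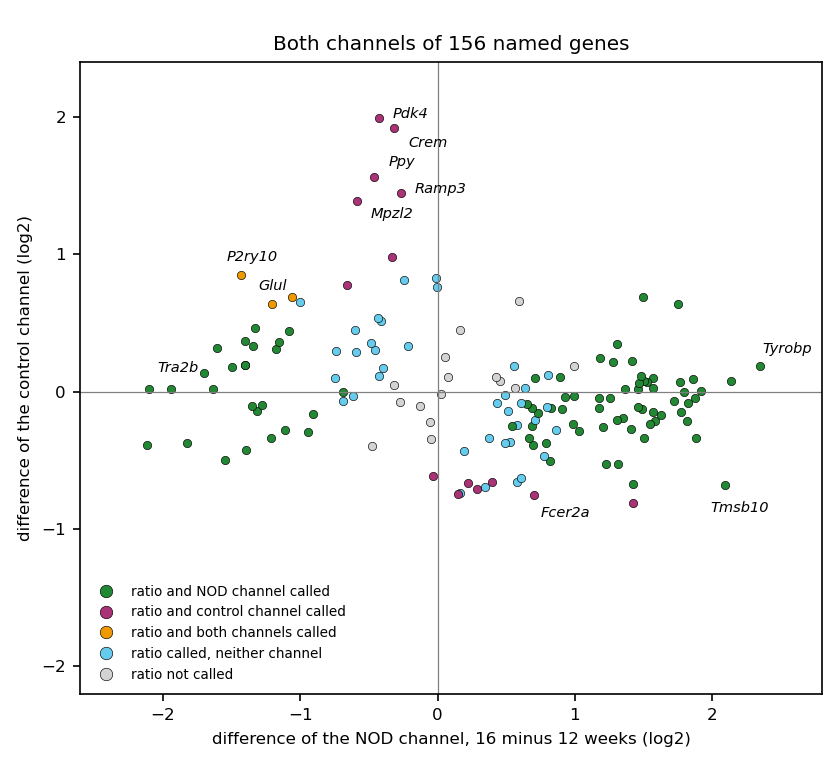
Difference of the NOD channel (x axis) against that of the control channel (y axis) between 16 and 12 weeks, both in log2, for 156 named genes, 1 point a gene, coloured by which channel was called. Most called genes lie along the x axis, from Heatr5a at -2.10 and Daglb at -2.12 to Tyrobp at 2.35, while Pdk4 (1.99) and Crem (1.92) lie high on the y axis near 0 on the other.

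Genes of MHC class II antigen presentation were higher at 16 weeks as a group. MHC class II molecules display peptides to CD4 T cells, and their loading needs the invariant chain (Cd74) and the DM molecule, while DO restrains DM and the coactivator Ciita switches the whole set on. Of 10 members, all of them measured on all 13 arrays, 7 rose and none fell in the ratio, against 21.3% higher among genes so measured and 9.36% among all genes. The median difference was 0.95 against 0.02 over all genes. The NOD channel rose for 5 of the 10, against 11.6% of the genes measured on all arrays, and the control channel was called for none. Most of these genes lie side by side on chromosome 17 and share short promoter elements, among them an X box, bound by the RFX complex, and a Y box, bound by NF-Y. Promoters of 8 of the 11 listed genes were found in the RefSeq table (GRCm38.p6), and 6 of them are shown because the called and the uncalled members can be read side by side. Each line gives the 150 bases before the annotated start, 5′ to 3′, for H2-DMb2 at chr17:34145099-34145248, H2-DMb1 at chr17:34153041-34153190, H2-Eb1 at chr17:34305717-34305866, H2-Oa at chr17:34092229-34092378, H2-Ob at chr17:34238755-34238904 (plus strand) and H2-Aa at chr17:34287824-34287973 (minus strand). Capitals mark ATGATGC, the end of the X box in several class II genes, and GATTGG, the core of the Y box, on either strand, and the motifs do not overlap.
H2-DMb2: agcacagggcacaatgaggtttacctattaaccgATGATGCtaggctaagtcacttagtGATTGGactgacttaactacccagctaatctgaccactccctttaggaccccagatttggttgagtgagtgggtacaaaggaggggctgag
H2-DMb1: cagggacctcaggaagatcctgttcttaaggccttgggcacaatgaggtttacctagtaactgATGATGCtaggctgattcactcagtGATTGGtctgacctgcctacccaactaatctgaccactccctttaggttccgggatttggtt
H2-Eb1: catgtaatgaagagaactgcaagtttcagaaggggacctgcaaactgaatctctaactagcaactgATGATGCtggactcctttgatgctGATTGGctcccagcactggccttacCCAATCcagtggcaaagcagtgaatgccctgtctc
H2-Oa: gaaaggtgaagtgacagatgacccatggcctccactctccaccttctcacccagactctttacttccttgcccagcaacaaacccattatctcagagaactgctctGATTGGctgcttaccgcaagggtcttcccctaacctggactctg
H2-Ob: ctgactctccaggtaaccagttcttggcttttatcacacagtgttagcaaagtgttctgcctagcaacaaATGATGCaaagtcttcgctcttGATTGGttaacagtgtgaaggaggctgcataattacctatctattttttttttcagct
H2-Aa: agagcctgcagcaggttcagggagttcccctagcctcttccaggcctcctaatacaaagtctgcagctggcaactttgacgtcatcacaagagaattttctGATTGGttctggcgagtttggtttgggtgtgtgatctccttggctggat
GATTGG was found within 250 bases before the start in 8 of 8 class II genes with a promoter, against 16.6% of 27025 genes with a promoter. ATGATGC was found in 4 of 8, against 2.33% of all. Both motifs occurred together in 50% of the class II genes and in 0.326% of all genes. The motifs were chosen with these promoters in view, so the shares describe them and do not test an enrichment. H2-DMb2, H2-DMb1 and H2-Eb1, whose ratios rose, hold both, and so does H2-Ob, whose ratio was not called. H2-Oa, whose ratio rose, and H2-Aa, whose ratio was not called, hold GATTGG without ATGATGC.

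Ciita stood between -0.95 and 0.19 (median -0.75) at 12 weeks and between 0.53 and 1.42 (median 0.80) at 16 weeks. All 6 arrays of 16 weeks were above all 7 of 12 weeks, and the difference was 1.46 ± 0.22 (SE; adjusted p = 1.46e-05). Cd74 ran from 0.14 to 1.26 (median 0.53) at 12 weeks and from 1.70 to 2.22 (median 1.96) at 16 weeks. Its groups did not overlap either, with a difference of 1.36 ± 0.16 (adjusted p = 2.72e-07), with 1.48 in the NOD channel and 0.12, not called, in the control channel. H2-DMb2, the beta chain of DM, ran from -0.31 to 0.63 (median -0.03) at 12 weeks and from 1.27 to 1.66 (median 1.50) at 16 weeks, a difference of 1.40 ± 0.18 (adjusted p = 8.91e-07). H2-DMb1, its close copy, rose by 0.98 ± 0.21, and since the copies are near identical the probes may share signal. Its replicate 7 at 12 weeks, from another scan day, stood at -0.44, above the -1.12 to -0.58 of 16 weeks, while the other 6 arrays of 12 weeks lay at -2.29 to -1.72. Without replicate 7 the difference was 1.22. H2-DMa, the alpha chain of DM, ran from -1.39 to 0.57 (median -0.94) at 12 weeks and from 0.16 to 0.51 (median 0.37) at 16 weeks. The 2 high arrays at 12 weeks were replicates 5 and 6, at 0.17 and 0.57, the first inside and the second above the range of 16 weeks, and the difference was 1.06 ± 0.22 with them and 1.49 without.

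Among the classical class II genes, H2-Eb1 ran from -0.61 to 1.28 (median -0.26) at 12 weeks and from 0.60 to 1.19 (median 0.92) at 16 weeks. Its difference of 0.91 ± 0.22 (adjusted p = 0.00322) rested on 6 of 7 arrays at 12 weeks lying below all of 16 weeks, with replicate 6 above all of them, and was 1.23 without replicates 5 and 6. H2-Aa was high in both replicates 5 and 6 at 12 weeks, 1.78 in replicate 5 and 2.13 in replicate 6 against -0.37 to 0.74 in the other 5 arrays, and 0.68 to 1.34 at 16 weeks. Its difference was 0.38 ± 0.29 (adjusted p = 0.477) and became 0.90 (adjusted p = 0.00105) without these replicates. H2-Ab1 differed by 0.04 ± 0.15 (adjusted p = 0.925), with 0.16 to 1.12 at 12 weeks and 0.60 to 1.15 at 16 weeks. That was its brightest probe, and a second one differed by 0.04, but 2 dimmer probes of H2-Ab1, also well above background on all 13 arrays, were called higher at 0.59 and 0.56 (adjusted p = 0.0253 and 0.0401), so the probes of this gene disagree. Of the DO chains, H2-Oa rose by 0.59 ± 0.19 (adjusted p = 0.0332) and H2-Ob differed by 0.44 ± 0.16 (adjusted p = 0.0597), short of the threshold. H2-Oa was no longer called without replicate 1, 2, 3 or 4 at 12 weeks or 1, 2, 4 or 6 at 16 weeks (adjusted p = 0.0542 to 0.0943). H2-Ob was called without replicate 6 at 12 weeks (0.51, adjusted p = 0.0272), without replicates 5 and 6 (0.51, adjusted p = 0.0328), and without replicate 4 at 16 weeks (0.50, adjusted p = 0.0455). Without replicates 5 and 6 at 12 weeks 9 of the 10 members rose, and 4 rose on the 12 arrays of 1 scan day fitted alone. Over all 28366 genes these fits called 6175 and 2378 in either direction, against 4676 in the main fit.

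**Figure D2:**
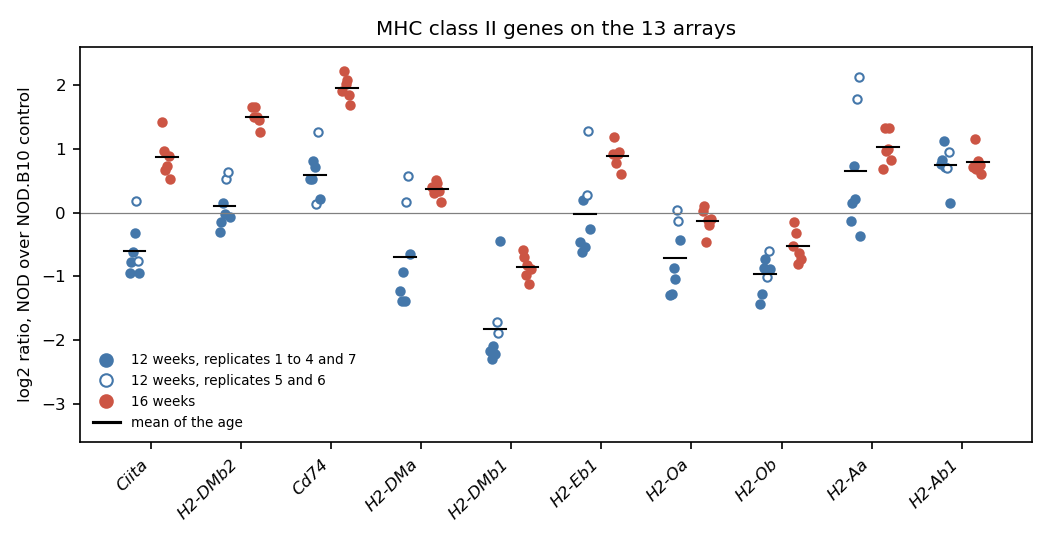
Log2 ratio (y axis) of the 10 MHC class II genes (x axis, ordered by difference) on each of the 13 arrays, with open circles for replicates 5 and 6 at 12 weeks and a bar at the mean of each age. Ciita, H2-DMb2 and Cd74 do not overlap between the ages, whereas the plotted probe of H2-Ab1, its brightest, overlaps throughout.

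MHC class I genes, whose products show peptides to CD8 T cells, did not move as a group: 4 of 20 rose, 3 fell and the median was 0.09. Of the 20, 13 were measured in both channels on all 13 arrays, where 21.3% of genes were higher and 16.9% lower. Among the risers was Psmb8, an immunoproteasome subunit, with a difference of 0.65 ± 0.18 over 6 arrays of each age, while its other probe, about as bright and valued on all 13 arrays, differed by 0.42 (adjusted p = 0.118) and was not called. H2-M3, which presents formylated peptides, ran from -0.66 to 0.12 (median -0.11) at 12 weeks and from -1.23 to -0.77 (median -1.10) at 16 weeks. These ranges did not overlap, and the ratio fell by 0.88 (SE 0.15, adjusted p = 7.4e-05), with -1.21 in the NOD channel and -0.34, not called, in the control channel. H2-K1, a classical class I chain, was read by a probe matched to it by symbol and not by accession. Its replicates 1 to 4 and 7 at 12 weeks lay between 1.16 and 1.46, while replicates 5 and 6 lay at -0.18 and -0.64, close to the -0.43 to -0.25 of the 5 arrays of 16 weeks that gave a value. Its ratio fell by 1.17 (SE 0.27), or by 1.67 without these replicates. H2-D1, the other classical chain, differed by -0.02 ± 0.16 (adjusted p = 0.965). H2-T3, a nonclassical chain measured on 5 arrays of 16 weeks, fell by 0.93 (SE 0.29). That call was lost after normexp background correction (-0.27, adjusted p = 0.0784), without replicates 5 and 6 at 12 weeks (-0.75, adjusted p = 0.0817), and without replicate 5 at 12 weeks or replicate 1, 3 or 6 at 16 weeks (adjusted p = 0.0519 to 0.0714).

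The highest differences among genes measured in both channels on all 13 arrays with groups that did not overlap belonged to genes of diverse roles. Tmsb10, which encodes an actin monomer-binding protein, had the highest. It ran from -2.24 to 1.08 (median -1.63) at 12 weeks and from 1.38 to 1.99 (median 1.67) at 16 weeks. The spread at 12 weeks came from replicates 5 and 6, at 0.08 and 1.08, against -2.24 to -1.20 on the other 5 arrays. The difference was 2.77 ± 0.34 (6.80-fold, adjusted p = 7.36e-07), with 2.09 in the NOD channel and -0.68 in the control channel, and it was 3.44 without replicates 5 and 6. Lgals1 (galectin-1) rose by 2.21 ± 0.29, Tyrobp, the signalling adaptor of many myeloid and natural killer cell receptors, by 2.16 ± 0.28, and S100a10, a partner of annexin A2, by 1.84 ± 0.24.

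Strn4, a scaffold of protein phosphatase 2A, stood between -0.47 and 0.38 (median -0.06) at 12 weeks and between 1.74 and 1.94 (median 1.84) at 16 weeks. Replicates 5 and 6 were the highest of their age, at 0.14 and 0.38, but lay far below every array of 16 weeks. The difference was 1.90 ± 0.13 (adjusted p = 2.09e-11), with 1.82 in the NOD and -0.08 in the control channel. Mta2, a subunit of the NuRD chromatin remodelling complex, ran from -0.15 to 0.35 on 6 arrays at 12 weeks with 1.53 on replicate 6, and from 2.14 to 2.54 at 16 weeks. It rose by 2.03 ± 0.17, while 2 dimmer probes of the gene, neither called, differed by 0.49 and -0.59. Scamp4 (1.78 ± 0.14), Ppp1r18 (1.79 ± 0.14), Tmem86a (1.80 ± 0.19), Alkbh7 (1.80 ± 0.24) and Elob (1.77 ± 0.19) completed the group with Atp5e, a subunit of ATP synthase (1.76 ± 0.26). Ppp1r18 was matched by a synonym. Another Alkbh7 probe, nearly as bright and well above background on all 13 arrays in both channels, differed by 0.17 and was not called. One such probe of Scamp4 differed by 0.40, not called, and a dim one by 0.73, called. After normexp correction Tmem86a differed by 1.08 and Alkbh7 by 1.07.

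**Figure D3:**
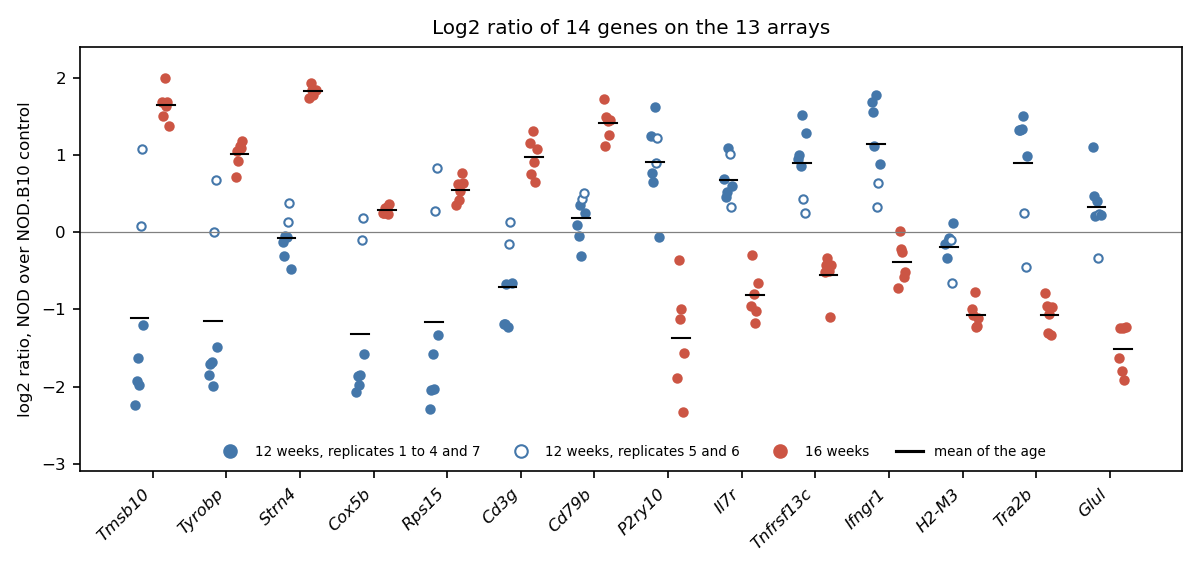
Log2 ratio (y axis) of 14 named genes (x axis) on each of the 13 arrays, with open circles for replicates 5 and 6 at 12 weeks and a bar at the mean of each age. In Tyrobp, Cox5b and Rps15 the open circles lie near the arrays of 16 weeks, and in Tmsb10 between those and the other arrays of 12 weeks. In Strn4, Il7r and H2-M3 the open circles lie among or near the other arrays of 12 weeks.

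Oxidative phosphorylation genes, which encode the respiratory chain and ATP synthase, rose broadly. Of 46 members 23 rose and 1 fell, with a median difference of 0.50, and 16 rose and 3 fell in the NOD channel while none was called in the control. Of the 46, 41 were measured on all 13 arrays, where the background is 21.3% higher and 16.9% lower. Cox5b, a subunit of cytochrome c oxidase, ran from -2.06 to 0.18 (median -1.85) at 12 weeks and from 0.23 to 0.36 (median 0.28) at 16 weeks. Again replicates 5 and 6 stood apart, at -0.10 and 0.18, just under the 6 tightly grouped arrays of 16 weeks. Its difference was 1.61 ± 0.25 (adjusted p = 2.05e-05), and Ndufb8 of complex I (1.70 ± 0.26) and Cox4i1 (1.51 ± 0.24) behaved alike. The mean over the 46 members lay between -1.19 and -0.14 (median -1.12) at 12 weeks and between -0.40 and -0.29 (median -0.32) at 16 weeks. On average these genes lay below the control on all 13 arrays.

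Ribosomal protein genes showed the same arrangement. Of 53 members 25 rose and 2 fell, with a median of 0.41, and 17 rose and 1 fell in the NOD channel. Over all genes 9.36% rose and 7.13% fell in the ratio and 4.91% rose in the NOD channel. Of the 53, 26 were measured in both channels on all 13 arrays. Rps15 of the small subunit ran from -2.29 to 0.83 (median -1.57) at 12 weeks and from 0.35 to 0.76 (median 0.58) at 16 weeks, with replicates 5 and 6 at 0.28 and 0.83, and rose by 1.72 ± 0.32 (adjusted p = 0.000163), or by 2.41 without these replicates. Rpl18 (1.45 ± 0.25), Rpl10a (1.44 ± 0.27) and Rpl13a (1.30 ± 0.25) of the large subunit rose too. The control signal of 14 of the 53 was saturated on some array, which limits how far their ratio can be read. Without replicates 5 and 6 at 12 weeks 30 of 46 oxidative phosphorylation genes and 32 of 53 ribosomal protein genes rose. On the 12 arrays of 1 scan day, fitted alone, the counts were 10 and 9. Over all 28366 genes these fits called 6175 and 2378 in either direction, against 4676 in the main fit. Proteasome genes rose in 8 of 28 and fell in 1, with a median of 0.14, against 12 and 2 without replicates 5 and 6 at 12 weeks and 4 and 1 on the 12 arrays. Of the 28, 23 were measured in both channels on all 13 arrays, where 21.3% of genes were higher and 16.9% lower. Psmb2, a catalytic core subunit, stood between -0.70 and 0.30 at 12 weeks and between 1.02 and 1.72 on the 5 arrays of 16 weeks that gave a value, a rise of 1.54 ± 0.15, or of 0.82 after normexp correction.

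Gene length moved with these changes. The median genomic span was 13.1 kb for genes called higher, 30.8 kb for genes called lower and 19.0 kb for all 19319 genes with a RefSeq name. Across these genes Spearman's rho between span and difference was -0.13 for the ratio, -0.15 for the NOD channel and -0.05 for the control channel. Genes are not independent, and the part of gene span or of RNA quality in the differences was not tested.

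T cell genes moved in both directions, with 6 of 28 higher and 3 lower and a median of 0.15. Of the 28, 24 were measured in both channels on all 13 arrays, where 21.3% of genes were higher and 16.9% lower. The count of 6 higher is near the first of these shares. Cd3g, a chain of the CD3 signalling complex of the T cell receptor, ran from -1.23 to 0.13 (median -0.67) at 12 weeks and from 0.65 to 1.31 (median 0.99) at 16 weeks. The groups did not overlap, and the difference was 1.69 ± 0.21 (adjusted p = 7.71e-07). Cd3d, another CD3 chain, rose by 1.57 ± 0.30 with replicates 5 and 6 at 0.51 and 0.69, among the arrays of 16 weeks, and by 2.21 without them. Cd3e, a further CD3 chain, differed by -0.07 ± 0.25 (adjusted p = 0.928) and was not called. Cd4 differed by 0.30 ± 0.21 (adjusted p = 0.432) and Cd8a, matched by symbol, by -0.08 ± 0.14 (adjusted p = 0.813) in its brightest probe. The 2 other probes of Cd8a, one about as bright, were called higher at 0.61 and 0.59 (adjusted p = 0.0181 and 0.0328), so its direction is unsettled.

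Il7r, the receptor of the survival cytokine interleukin-7, fell. It ran from 0.32 to 1.09 (median 0.60) at 12 weeks and from -1.18 to -0.30 (median -0.88) at 16 weeks. Every array of 16 weeks lay below every array of 12 weeks, replicates 5 and 6 included, and the difference was -1.49 ± 0.17 (adjusted p = 1.81e-07) with and -1.49 without them. P2ry10, a lysophospholipid receptor of lymphocytes, ran from -0.06 to 1.63 (median 0.89) at 12 weeks and from -2.33 to -0.36 (median -1.34) at 16 weeks. It had the lowest difference of the genes measured on all arrays without overlap, -2.28 ± 0.27, with -1.43 in the NOD channel and 0.85 in the control channel, both called. In whole tissue, fewer cells of a type and less RNA per cell cannot be told apart.

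Regulatory T cell genes rose in none of 16 and fell in 3, with a median of -0.05. Over all genes 9.36% rose and 7.13% fell. Of the 16, 8 were measured in both channels on all 13 arrays, where 21.3% of genes were higher and 16.9% lower. Ctla4, an inhibitory receptor of T cells, fell by 0.77 (SE 0.26), with 0.10 to 1.73 at 12 weeks and -0.37 to 1.20 at 16 weeks, and its NOD signal was not called (adjusted p = 0.997). That call was lost after normexp correction (-0.13, adjusted p = 0.218), without replicates 5 and 6 at 12 weeks (-0.52, adjusted p = 0.188), and without replicate 2, 5 or 6 at 12 weeks or 1, 2 or 5 at 16 weeks (adjusted p = 0.0676 to 0.110). Foxp3, the defining transcription factor of these cells, differed by -0.03 ± 0.29 (adjusted p = 0.974). Ikzf2 fell by 0.83 in the probe matched by a synonym and differed by 0.16 in a probe matched by accession, so its direction is unsettled. Its call was also lost after normexp correction (-0.39, adjusted p = 0.0777) and without replicate 1, 2, 3, 4 or 7 at 12 weeks or 3, 4 or 5 at 16 weeks (adjusted p = 0.0619 to 0.114). Among cytotoxic and natural killer cell genes 4 of 22 rose and 1 fell, and 10 of the 22 were measured on all 13 arrays. Nkg7 rose by 1.30 ± 0.20 and Gzma (granzyme A) by 1.24 ± 0.27, the latter by 0.33 after normexp correction. Fasl, the death ligand, ran from 0.23 to 0.57 at 12 weeks and from -1.32 to -0.07 at 16 weeks, a fall of 0.97 (SE 0.22), or of 0.44 after normexp correction. Il2 (0.17 ± 0.32, adjusted p = 0.839) and Ifng (-0.20 ± 0.29, adjusted p = 0.77), the cytokines of activated T cells, were not called.

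B cell genes showed the same mixture, with 8 of 23 higher and 3 lower and a median of 0.16. Of the 23, 17 were measured in both channels on all 13 arrays, where 21.3% of genes were higher and 16.9% lower. Fcer2a (CD23), a receptor of mature follicular B cells, ran from -0.82 to -0.16 (median -0.42) at 12 weeks and from 0.74 to 1.34 (median 0.99) at 16 weeks. It rose by 1.46 ± 0.19 without overlap, with 0.70 (adjusted p = 0.0646) in the NOD channel and -0.75 (adjusted p = 0.00428) in the control. Fcmr, the receptor of immunoglobulin M, rose by 1.32 ± 0.15 and Cd79b, a signalling chain of the B cell receptor, by 1.23 ± 0.14, both without overlap. Tnfrsf13c, the receptor of the B cell survival factor BAFF, went the other way. It ran from 0.25 to 1.52 (median 0.95) at 12 weeks and from -1.10 to -0.34 (median -0.47) at 16 weeks, a fall of 1.45 (SE 0.16, adjusted p = 1.31e-07) with -1.82 in the NOD channel. Of the germinal centre and plasma cell genes 3 of 19 rose, led by Mzb1 at 1.48 ± 0.28, and 1 fell.

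Myeloid genes were split as well. Of 19 macrophage and monocyte genes 3 rose and 1 fell. Of the 19, 16 were measured in both channels on all 13 arrays, where 21.3% of genes were higher and 16.9% lower. Both counts lie below these shares. The complement gene C1qa rose by 1.54 ± 0.25, whereas Marco, a scavenger receptor of sinus macrophages, ran from 0.37 to 2.32 (median 1.94) at 12 weeks and from -0.30 to 0.98 (median 0.66) at 16 weeks and fell by 1.05 (SE 0.25), or by 1.48 without replicates 5 and 6 at 12 weeks. Of 20 dendritic cell genes 5 rose and none fell, among them Bst2 (0.97), Cd40 (0.89 ± 0.19), the receptor through which helper T cells license these cells, and Irf8 (0.74 ± 0.14), a transcription factor of dendritic cell development, of which a dimmer probe differed by 0.32 and was not called. The median of that list was -0.04, so the rises were those of a few members. Of 23 genes of blood endothelium 9 rose and 2 fell, with a median of 0.44. Plvap, of fenestrated endothelium, stood at 0.21 to 0.64 on the 6 arrays of 12 weeks that gave a value and 1.02 to 1.77 at 16 weeks, a rise of 1.03 ± 0.13. Madcam1, the mucosal addressin of high endothelial venules, rose by 1.22 ± 0.21, or by 0.66 after normexp correction. Icam1, matched by symbol, rose by 0.94 ± 0.15, though its accession-matched probe was not called (0.60, adjusted p = 0.086). Vcam1, another adhesion molecule, fell by 1.06 (SE 0.19), and neither gene overlapped between the ages. Dimmer Vcam1 probes differed by -0.22 and -0.41 and were not called. Of 12 lymphatic endothelium genes 1 rose and 4 fell. The riser was Madcam1 and 1 of the fallers was Marco, both of them counted in lists above as well. Another faller was not called after normexp correction (-0.30, adjusted p = 0.0559). Lyve1, the hyaluronan receptor, fell by 0.89 (SE 0.25). Without replicate 1 at 16 weeks Lyve1 differed by -0.61 (adjusted p = 0.0504).

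In stromal and matrix genes more calls lay in the control channel than in the NOD channel. Of 24 members 6 rose in the ratio and none fell, with a median of 0.54. In the NOD channel 2 rose and 1 fell. The median of the NOD channel was 0.00 and that of the control channel -0.43, with 6 control signals called lower and none higher. The mean control signal of the list lay between 11.74 and 11.92 (log2) at 12 weeks and between 11.16 and 11.45 at 16 weeks. Col6a1, a collagen VI chain, was called in the NOD channel (1.42). Its ratio rose by 2.09 ± 0.32, from a range of -0.71 to 0.42 to one of 1.16 to 3.97, and by 0.63 after normexp correction. Without replicates 5 and 6 at 12 weeks 3 members rose and 3 fell, with a median of 0.17, and on the 12 arrays of 1 scan day 3 rose and none fell. After normexp correction 3 rose and 1 fell, with a median of 0.18. Over all 28366 genes these fits called 6175, 2378 and 4564 in either direction, in that order.

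Interferon genes did not move as a group. Of 22 genes of the interferon gamma response 3 rose and 5 fell, with a median of -0.01. Of the 22, 16 were measured in both channels on all 13 arrays, where 21.3% of genes were higher and 16.9% lower. Ifngr1, a chain of the interferon gamma receptor, ran from 0.32 to 1.78 (median 1.12) at 12 weeks and from -0.72 to 0.02 (median -0.39) at 16 weeks. It fell by 1.52 (SE 0.19, adjusted p = 5.63e-07) without overlap. Gbp5, a guanylate-binding protein induced by that cytokine, fell by 1.65 (SE 0.28). In contrast Psme1, the proteasome activator subunit, rose by 1.09 ± 0.15. Of 30 genes of the type I interferon response 2 rose and 1 fell, with a median of -0.16. Ifi27 rose by 2.23 ± 0.44 in a probe matched by symbol, with -3.42 to -2.22 on 5 arrays of 12 weeks, -1.03 and 0.54 on replicates 6 and 5, and -0.78 to 0.60 at 16 weeks. A probe matched to Ifi27 by accession differed by 0.28 (adjusted p = 0.191).

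RNA splicing genes divided into risers and fallers, 7 and 9 of 34. Of the 34, 26 were measured in both channels on all 13 arrays, where 21.3% of genes were higher and 16.9% lower. The count of 7 risers is near the first of these shares. The core snRNP proteins Snrpd2 (1.34 ± 0.25) and Snrpb (1.23 ± 0.18, with no value on replicate 2 at 16 weeks) rose. Tra2b, a splicing regulator whose probe was matched by a synonym, stood at 0.98 to 1.51 on 5 arrays of 12 weeks, at 0.24 and -0.46 on replicates 5 and 6, and at -1.33 to -0.79 at 16 weeks. It fell by 1.96 (SE 0.20), and by 2.36 without these replicates, but a probe matched to Tra2b by accession differed by -0.12 (adjusted p = 0.566). Srsf7, an SR protein, fell by 1.18 (SE 0.18), with no value on replicate 5 at 12 weeks. Another Srsf7 probe fell by 0.78, and the dimmest, also well above background on all 13 arrays, differed by 0.18 and was not called. Hsp90aa1, the stress-inducible HSP90 chaperone, fell by 1.60 (SE 0.28), with replicates 5 and 6 at -0.46 and -0.68 beside the -1.21 to -0.46 of 16 weeks and the other arrays of 12 weeks at 1.02 to 1.59. Without these replicates it fell by 2.14. Calr, the chaperone of the endoplasmic reticulum, rose by 1.42 ± 0.15, while its dimmer probe differed by -0.43 and was not called. Glul, glutamine synthetase, fell by 1.84 (SE 0.25) with its control signal also called (0.64 higher), Dusp10, a phosphatase of stress kinases, by 1.92 (SE 0.26), and Selenop, a selenium carrier, by 1.60 (SE 0.24). Heatr5a (-2.12 ± 0.28), Crim1 (-1.80 ± 0.26), Sorl1 (-1.77 ± 0.18), Ric1 (-1.68 ± 0.19) and Fam117b (-1.68 ± 0.18) fell in probes matched by symbol or synonym, which may read another transcript than the RefSeq one. An accession-matched probe of Heatr5a differed by -0.73, and after normexp correction Sorl1 differed by -1.09 and Crim1 by -1.19. Daglb fell by 1.73 in such a probe, while a probe matched by accession differed by 0.86 in the other direction.

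In a smaller group of genes the ratio fell and the control signal rose. Pdk4, the kinase that shuts down pyruvate dehydrogenase in fasting, ran from -2.42 to 0.67 (median -1.03) at 12 weeks and from -4.38 to -1.95 (median -3.26) at 16 weeks in the ratio, a difference of -2.42 ± 0.57 (adjusted p = 0.00258). Its control signal lay between 11.64 and 12.10 (log2) on the arrays of 12 weeks and between 13.73 and 14.13 on those of 16 weeks, so the control alone differed by 1.99 (adjusted p = 9.24e-13) while the NOD signal differed by -0.42 (adjusted p = 0.751). Crem, a cyclic AMP-responsive transcription factor, fell by 2.24 (SE 0.36) with a control difference of 1.92 and a NOD difference of -0.31. After normexp correction the Crem ratio differed by -1.42. Mpzl2, an epithelial adhesion molecule, fell by 1.98 (SE 0.35; control 1.39), Ramp3, a partner of the calcitonin receptor-like receptor, by 1.71 (SE 0.41; control 1.45), and Trnp1 by 1.31 (SE 0.34; control 0.98), the last by 0.73 after normexp correction. Without replicates 5 and 6 at 12 weeks Ramp3 differed by -1.07 and Trnp1, matched by a synonym, by -0.79, the latter no longer called (adjusted p = 0.0553). In the opposite direction Pxdc1, Ikzf3 (matched by a synonym) and Col14a1 rose by 0.89 to 0.99, and their control signals fell by 0.66 to 0.74. After normexp correction Ikzf3 differed by 0.49 and Col14a1 by 0.53, and 2 dimmer Ikzf3 probes, not called, differed by 0.18 and -0.26. Ikzf3 (0.65, adjusted p = 0.0901) and Col14a1 (0.55, adjusted p = 0.0516) were not called without replicates 5 and 6 at 12 weeks.

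Of 15 glucocorticoid response genes 6 rose in the control channel and none fell, against 0.68% of all genes higher in that channel, with a median of 0.74. Their mean control signal was 11.68 to 12.26 at 12 weeks and 12.53 to 12.75 at 16 weeks. Of 19 neutrophil genes 9 rose in the control (median 0.73) and 3 in the NOD channel (median 0.62), and none was called in the ratio. Of 7 genes of the regenerating (Reg) family, made by stressed acinar cells, 5 rose in the control with a median of 1.06, and their mean control signal was 12.87 to 13.27 at 12 weeks and 14.15 to 15.34 at 16 weeks. Neither of these ranges of means overlapped between the ages. In the ratio the median of the Reg family was -1.11, and -0.07 without replicates 5 and 6 at 12 weeks. The age of the control mice behind each array is not given, and the age of the NOD mice and the control RNA used cannot be told apart in these values.

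Acinar genes encode the digestive enzymes of the pancreas. Of the 28 measured, 20 had a saturated control signal on some of the 13 arrays. Their mean ratio ran from -7.65 to -1.16 (median -4.07) at 12 weeks and from -7.72 to 0.44 (median -3.09) at 16 weeks. The spread between arrays of 1 age exceeded the difference between the ages, the median of which was 1.12 (2.11 without replicates 5 and 6 at 12 weeks), and none was called. The mean NOD signal of the list, in log2, lay between 10.60 and 16.35 at 12 weeks and between 11.03 and 18.07 at 16 weeks. Of 30 islet genes 2 fell, near the share of 7.13% lower over all genes, and the median was -0.30. Ppy, pancreatic polypeptide, fell by 2.02 (SE 0.57) with a control difference of 1.56, and the difference was -0.60 with adjusted p = 0.0747, not called, after normexp correction. Ins2, which encodes insulin, stood at -7.05 to -5.14 on 6 arrays of 12 weeks with -1.40 on replicate 6, and at -7.32 to -6.73 on 5 arrays of 16 weeks with -2.04 on replicate 5. The difference of -0.29 ± 1.15 (adjusted p = 0.932) was small against that spread, as were those of Ins1 (0.32 ± 0.92), Gcg (-0.20 ± 0.80) and Sst (-0.36 ± 0.45), none of them called. Deaf1 controls tissue antigen genes in lymph node stroma. Its brightest probe ran from -6.10 to -1.41 at 12 weeks and from -6.32 to -0.08 at 16 weeks. The difference was 0.81 ± 1.03 (adjusted p = 0.731). A dimmer accession-matched Deaf1 probe, clear of background on 12 arrays in each channel, differed by 0.14. The dimmest, matched by symbol, differed by -0.13, and neither was called. Ratios of the dimmer probes at each age are not reported here, so the level of Deaf1 is unsettled. Aire differed by 0.54 ± 0.21 (adjusted p = 0.0703), or by 0.63 (adjusted p = 0.0441) without replicate 5 at 16 weeks and 0.40 (adjusted p = 0.00743) after normexp correction. The part of pancreatic RNA in the other differences was not tested.

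**Figure D4:**
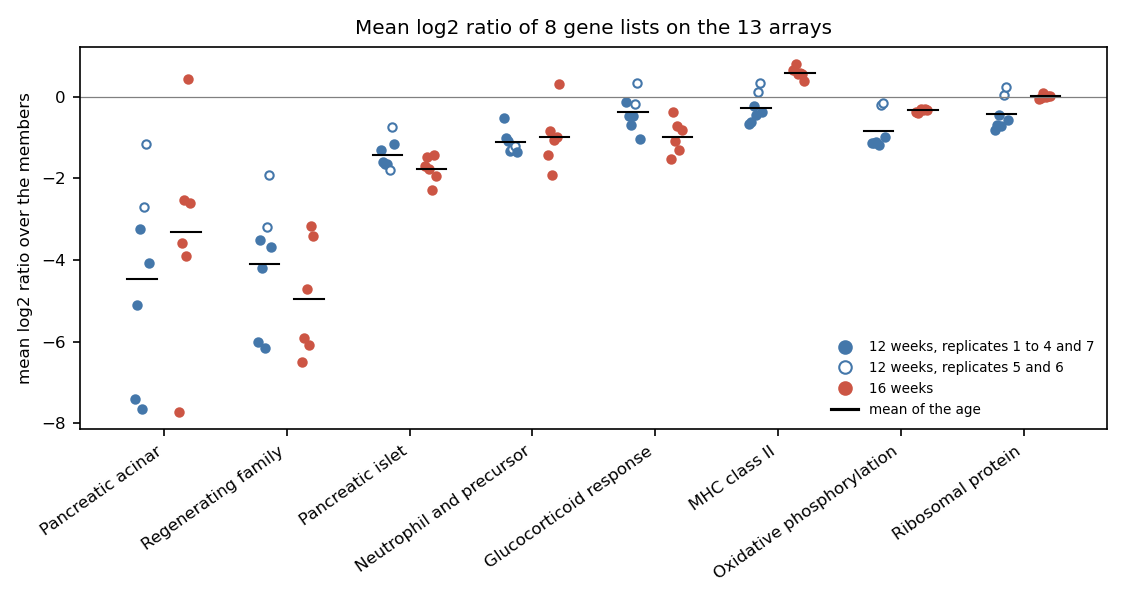
Mean log2 ratio over the members (y axis) of 8 gene lists (x axis) on each of the 13 arrays, with open circles for replicates 5 and 6 at 12 weeks and a bar at the mean of each age. The acinar means spread from -7.72 to 0.44, while the oxidative phosphorylation means of 16 weeks lie between -0.40 and -0.29.

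The following counts stand against 9.36% higher and 7.13% lower over all genes. Those of cell cycle, cytokine and chemokine, heat shock and immediate early genes were near the first share. Cell cycle genes rose in 4 of 46 and fell in 2, with a median of 0.06, led by Mcm7 at 0.91 ± 0.17. NF-kappaB and TNF signalling genes rose in 6 of 22 and fell in 2, led by Nfkb2 at 0.94 ± 0.16. Of the 22, 18 were measured in both channels on all 13 arrays, where 21.3% of genes were higher and 16.9% lower. Cytokine and chemokine genes rose in 4 of 35 and fell in 1. Unfolded protein response genes rose in 4 of 22 and fell in 3, heat shock genes in 2 and 2 of 20, and immediate early genes in 3 and 2 of 25. Of these lists 18, 16 and 16 members, in that order, were measured on all 13 arrays, where 21.3% were higher and 16.9% lower. The unfolded protein response counts are near these shares. No gene was called in the ratio among the acinar, Reg family, neutrophil, liver-secreted and non-pancreatic tissue antigen lists. The adipocyte, erythroid and mast cell lists had 1 riser each. Duct and epithelium genes fell in 3 of 20, led by Cftr at -1.66 ± 0.37, or -0.49 after normexp correction. Of the 20, 4 were measured in both channels on all 13 arrays. The Cftr probe was dim, and was well above background on 8 of the 13 arrays in the NOD channel and 5 in the control channel. After normexp correction only 1 of the 20 was called lower. Regulators of tissue antigens rose in 3 of 10 and fell in 1, circadian clock genes fell in 2 of 18, and interferon ligands and receptors rose in 2 of 12 and fell in 1.

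**Figure D5:**
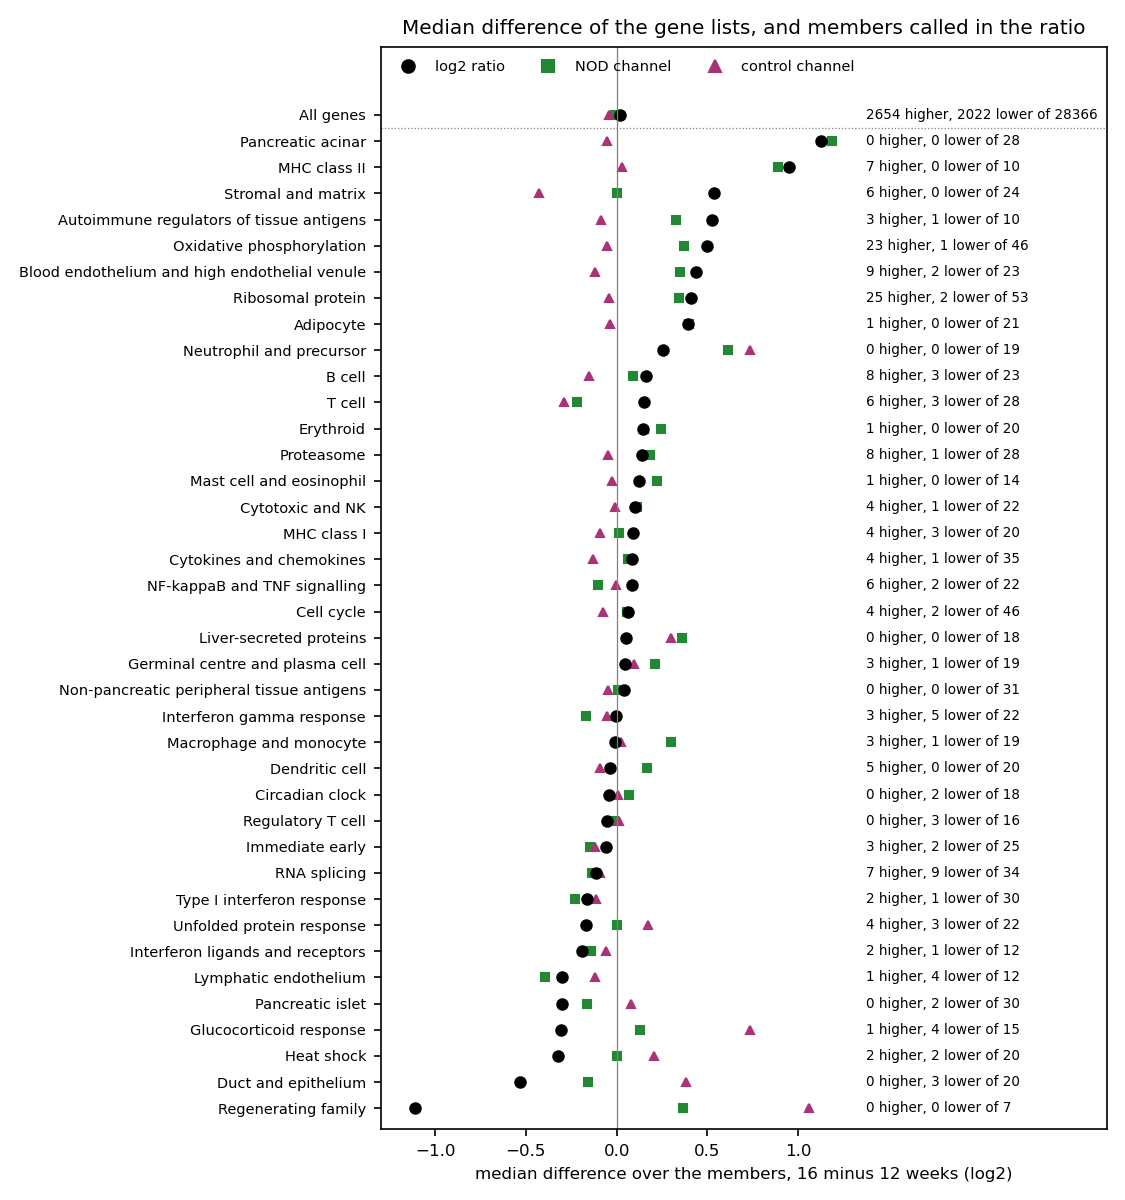
Median difference between 16 and 12 weeks (x axis, log2) over the measured members of 38 gene lists and over all genes, for the log2 ratio (circles), the NOD channel (squares) and the control channel (triangles), with the number of members called in the ratio. MHC class II genes stand at 0.95 in the ratio with 0.89 in the NOD channel, whereas the stromal list has 0.54 in the ratio with -0.43 in the control.

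Of the 13 arrays 12 were scanned on 1 day and the remaining one, replicate 7 at 12 weeks, on another day, with another scanner and Feature Extraction version. Fitted on their own, the 12 arrays of 1 day gave 2378 called genes, 2271 of them among the 4676, and all 4676 kept their direction. These 12 arrays had also served to call the 4676, so the kept direction was largely set beforehand. Of the genes named above, H2-DMa (adjusted p = 0.0581), H2-Eb1 (0.083), H2-Oa (0.134), Cd3d (0.0531), Rpl10a (0.0541), Rpl13a (0.0525), Ctla4 (0.0511), Ikzf2 (0.16), Marco (0.105), Lyve1 (0.0882), H2-K1 (0.0923), H2-T3 (0.0781), Col14a1 (0.0832), Ramp3 (0.062), Trnp1 (0.0516) and Cftr (0.0929) were no longer called there. Higher and lower counts on these 12 arrays were 2 and 2 for T cell genes, 5 and 2 for B cell genes, 4 and 2 for blood endothelium, 1 and 0 for lymphatic endothelium, 0 and 0 for regulatory T cells, 3 and 1 for the interferon gamma response and 4 and 4 for splicing. These stand against the 2378 of 28366 genes called on the 12 arrays in either direction. T cell genes rose in 7 and fell in 6, and splicing genes rose in 7 and fell in 13, where replicates 5 and 6 at 12 weeks were left out. That fit called 6175 of all genes. Scanner 4 read 3 arrays of each age, among them replicates 5 and 6 at 12 weeks. Within these 6 arrays limma called none after adjustment, 2809 of 28365 genes had an unadjusted p under 0.05, and 4652 of the 4676 kept their direction. These 6 arrays, too, had served to call the 4676. There Tmsb10 differed by 1.84, Strn4 by 1.67, Cd74 by 1.17, Cox5b by 0.89, Il7r by -1.76 and Pdk4 by -3.13. With the scanner as a block over all 35 arrays 3869 genes were called, and H2-Oa (adjusted p = 0.0598), H2-T3 (0.0655) and Ikzf2 (0.0509) were not. In a fit to the 13 arrays alone H2-Oa, H2-K1, Ctla4, Ikzf2, Marco, Lyve1, Col14a1, Ramp3, Trnp1 and Cftr were not called (adjusted p = 0.0534 to 0.137). Where a gene had several probes the brightest stood for it. For H2-M3, Il7r, Ndufb8, Fasl, Glul, Mpzl2, Crem, Cftr, Col14a1, Fam117b and Ric1 each further probe that was not called was dimmer, was not well above background on some array, and differed by -0.58 to 0.22.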

How the data were processed

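Node RNA of NOD mice (Cy3) and of NOD.B10 mice (Cy5) was measured on 2-colour Agilent arrays. Per the file headers, Feature Extraction 8.5.1.1 or 8.1.1.1 background-subtracted and dye-normalised the deposited processed intensities; the submitters' processing notes name version 8.5. Mean and background intensities were deposited as scanner values. The deposited value table, a log10 ratio by the authors, was an alternative after conversion to log2. The log2 ratio of the processed intensities was computed here from the deposited columns. Control spots and outliers were removed, saturated ones were not, and replicate spots of each probe were averaged. A probe was kept (40833 of 41174) if either channel was well above background on 4 or more of the 35 arrays, and the brightest probe stood for a gene. Names came from a RefSeq table (GRCm38.p6), where 22214 probes had their accession, 5056 only their symbol and 4392 only an older synonym. Promoter sequences are from RefSeq (GRCm38.p6).

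limma 3.58.1 (R 4.3.3; lmFit and eBayes) fitted 6 age means to all 35 arrays, two-sided, with Benjamini-Hochberg adjustment at 0.05. For the channels, average intensities were quantile normalised between arrays (Aquantile), which leaves each ratio unchanged and makes the ratio difference equal the NOD minus the control difference. The fit was tested on simulated data. Signal over background, not read depth, limits precision here, and few arrays an age limit it further. Alternatives were normexp correction with loess, the deposited values, filters on dim, saturated or unmatched probes, centring, batch and replicate blocks, and arrays left out. The numbers of replicates were checked for pairing and did not pair the arrays.

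Genes were named by rule: up to 12 highest and 12 lowest differences among called genes without overlap and measured on all 13 arrays; up to 8 of each led by the NOD channel; up to 5 of each led by the control; up to 4 called members of each list; and 19 genes fixed by name. Some genes that this rule selects are not reported here. H2-DMb1, H2-Oa and H2-Ob were added as the remaining members of their list, after their values were seen, and the motifs were chosen with these promoters in view. Members and lists were chosen with earlier results of these data known. Lists were described by counts and medians and were not tested.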

Additional observations from a re-analysis of the deposited data

Results flagged for a closer look

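Within each age the highest or lowest array was compared with its nearest neighbour, and 20 of 185 sets of values held an array that stood apart from the others by Dixon's criterion (10.8%). Chance alone marks about 1 in 20 such sets. Replicate 6 at 12 weeks stood apart in Mta2 (1.53), Ppp1r18 (0.71), Ins1 (-1.04) and Ins2 (-1.40), and replicate 5 at 12 weeks in the mean of the type I interferon response genes (0.96). Replicate 2 at 12 weeks was high in the means of cytokine and chemokine genes (0.23) and of duct and epithelium genes (1.16), and replicate 1 at 12 weeks in that of neutrophil genes (-0.52). Replicate 5 at 16 weeks stood apart in Ins1 (-1.47), Ins2 (-2.04) and Ifng (-1.98), and in the means of duct and epithelium genes (-0.35) and of autoimmune regulator genes (0.50). Replicate 2 at 16 weeks stood apart in Mta2 (2.54), Scamp4 (1.58), Ramp3 (-0.10) and the mean of dendritic cell genes (0.64). Replicate 1 at 16 weeks was low in Selenop (-1.97) and Mpzl2 (-3.39), and replicate 6 at 16 weeks was high in the mean of liver-secreted protein genes (-0.039). All values are log2 ratios, and their causes were not tested.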

How the results depend on the processing

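The count of genes called in the ratio stayed within 1.5 times 4676 under normexp correction, the deposited values, the filters, centring, the scanner, scan day and version blocks, and with each array left out in turn (4001 to 5474). It was 2787 (1583 higher, 1204 lower) in a fit to the 13 arrays, 2378 (1380 and 998) on the 12 arrays of 1 scan day, and 0 (0 and 0) by limma on 6 arrays of 1 scanner, where 2809 genes had an unadjusted p under 0.05. After the mean of its age was subtracted from each array, same-numbered arrays of the 2 ages correlated at -0.12 to 0.10. Of these, 1 of 6 correlated best with its own number, so the numbers did not pair the arrays. With the replicate number as a block 811 genes were called (463 and 348), of which 798 were among the 4676. The NOD channel gave 968 (339 and 629) with the channel centred on its median, 1579 (752 and 827) on 13 arrays and 4616 (2349 and 2267) without replicates 5 and 6 at 12 weeks, an alternative chosen after seeing the data. The control channel gave 32 (23 and 9), 188 (119 and 69) and 179 (117 and 62) under the same settings, and with 1 array left out it gave 217 to 352 called and 84 to 175 lower, the lowest of both without replicate 6 at 16 weeks and the highest without replicate 7 at 12 weeks. The direction reversed for Dusp6 on 6 arrays of 1 scanner (0.046), and for Ikzf2 (0.16) and Daglb (0.86) where only accession-matched probes were used, an alternative also chosen after seeing the data. The cause of these changes was not tested. In simulated data the fit recovered 91% of differences of 2 and 46% of differences of 1. Far fewer genes were changed there than were called here, and the noise was independent, so these shares need not hold here. A gene that was not called may still differ.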
